A study of Mus musculus with 6 samples.

Results

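The serpin, clotting and complement genes of mouse liver were read on 6 arrays. A gene was a member where the array's annotation gave a probe set its symbol alone and that symbol was of the serpin family, of a clotting factor or fibrinogen chain, of a complement component or factor, or 1 of Plg, Proc, Pros1, Klkb1, Kng1, Cd59a and Habp2. The rule used symbols and no measured value. It found 47 genes, on 59 probe sets, of 8251 genes on the array with 1 symbol.

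Total liver RNA came from male mice aged 8 to 10 weeks, with 1 array for each of 6 groups. The groups were Clock mutant mice at CT14 and at CT02, Cry-deficient mice at CT14 and at CT02, and wild-type mice at CT14 and at CT02. Circadian time (CT) counts hours from the start of subjective day, so CT14 (14 h) falls early in the subjective night and CT02 (2 h) early in the subjective day. The CT02 array of the Cry-deficient mice was described as from a double knockout of Cry1 and Cry2, and the CT14 array only as Cry deficient. A strain background (C57BL/6) was given for wild type alone, so strain and genotype cannot be told apart in the mutant comparisons. Neither the Clock allele nor any pooling of mice was given in the sources used here.

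Hepatocytes make and secrete most of the plasma proteins that clot blood, and also the inhibitors that hold them in check. Serpins are a family of protease inhibitors that trap their target by a large change of shape, and some members carry hormones or act as chaperones instead. Complement is a cascade of plasma proteins that marks and perforates microbes, and host cells carry regulators that stop it. The CLOCK protein, with the product of Arntl, drives rhythmic transcription in liver, and the cryptochromes repress that pair.

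Intensities were scaled so that the typical gene had the same level on every array, and values below 606 scaled units (the median over all probe sets and arrays) were read as that floor. Where 1 of a pair of readings stood at the floor, the fold is only a lower bound and is written "at least". Of the 47 genes, 38 had a mean at or above the floor and were kept, among 4844 genes kept in all. With 1 array a group no difference has a replicate check and none was tested, so sizes are given as descriptions of these arrays, whose number limits their precision. A fold of 2 is used as a mark of size. In whole-liver RNA, fewer cells of a type and less RNA per cell cannot be told apart.

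The mean deposited intensity was between 1637 and 2486, lowest on the Clock mutant CT02 array. The Actb control probes nearest the 3' end were 1.15 and 2.68 times as bright as those at the 5' end on the Clock mutant arrays of CT14 and CT02, a gauge of how long the RNA was, against 0.86 and 1.70 times for Cry-deficient mice and 0.93 and 0.84 times for wild type. The same ratio for Gapdh was 2.37 on the Cry-deficient CT02 array against 0.56 to 0.72 on the others. Pcx probes gave 6.57 and 17.7 in the Clock mutant at CT14 and CT02, 7.14 and 25.3 in Cry-deficient mice and 3.96 and 19.7 in wild type. By Pcx alone, each genotype including wild type had the higher ratio at CT02. The part of RNA length in the comparisons between times was not tested. All 9 hepatocyte markers on the array were kept, with 7 to 9 of them above the floor on each array, whereas none of 3 cholangiocyte markers was above it. The summed hepatocyte markers read 81726 and 117318 in the Clock mutant at CT14 and CT02, 93960 and 114151 in Cry-deficient mice and 98952 and 100079 in wild type. In the Clock mutant at CT14, 7 of the 9 were below wild type, with a median log2 ratio of -0.23. The part of this shift in the members' readings was not tested. On the only Cry1 probe set above the floor, Cry-deficient mice read 4718 and 3845 at CT14 and CT02, the Clock mutant 366 and 1963 and wild type 2723 and 1833. Cry2 read 1344 and 1185 in Cry-deficient mice, 1886 and 1372 in Clock mutant mice and 2256 and 1215 in wild type, and Clock read 2069 and 1640 in the Clock mutant, 3025 and 1155 in Cry-deficient mice and 1552 and 2430 in wild type. These readings leave the labels unchecked, since the labels place no probe relative to the mutated parts.

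The alpha-1-antitrypsin genes Serpina1b, Serpina1c and Serpina1e were the members at least 2-fold below wild type in the Clock mutant at CT14. They encode the main plasma inhibitor of neutrophil elastase, for which mice carry several near-identical gene copies in a cluster on chromosome 12. The upstream sequence of the 3 copies that are members is shown because it is nearly the same in all of them. Any link between it and their readings was not tested. The lines give the 250 bases before the annotated start, from RefSeq on build GRCm38.p6, minus strand, with the letters GTTAAT in capitals, a half-site of the liver factor HNF1, which binds the promoter of this gene in humans.
Serpina1b, chr12:103738190-103738439: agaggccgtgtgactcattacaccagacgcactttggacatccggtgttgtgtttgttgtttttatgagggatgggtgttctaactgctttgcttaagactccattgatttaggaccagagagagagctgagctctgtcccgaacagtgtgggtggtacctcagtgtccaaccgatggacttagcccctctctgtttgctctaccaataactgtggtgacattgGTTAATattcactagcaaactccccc
Serpina1c, chr12:103904951-103905200: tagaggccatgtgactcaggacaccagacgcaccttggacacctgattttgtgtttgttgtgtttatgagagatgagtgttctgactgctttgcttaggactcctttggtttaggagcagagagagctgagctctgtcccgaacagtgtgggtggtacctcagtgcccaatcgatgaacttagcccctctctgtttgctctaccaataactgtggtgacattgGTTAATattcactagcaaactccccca
Serpina1e, chr12:103956898-103957147: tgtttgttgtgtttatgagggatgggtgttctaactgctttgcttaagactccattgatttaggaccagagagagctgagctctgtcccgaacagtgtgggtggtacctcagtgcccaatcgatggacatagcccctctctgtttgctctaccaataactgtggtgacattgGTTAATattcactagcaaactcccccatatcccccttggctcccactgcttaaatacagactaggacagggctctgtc

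Aligned, Serpina1b and Serpina1e were identical at 194 of 198 bases, Serpina1c and Serpina1e at 190 of 199, and Serpina1b and Serpina1c at 229 of 248. The annotated start of Serpina1e lies further downstream, so the half-site begins 78 bases before it, against 26 and 27 bases in Serpina1b and Serpina1c. Searched on both strands, GTTAAT stood in 7 of the 31 upstream windows of kept members (22.6%) and in 6.43% of the 32851 windows of all genes. The 7 include the near-identical windows of Serpina1b, Serpina1c and Serpina1e, which do not count as separate sequences. The other 4 were those of F13b, Fga, Fgb and Habp2, and the shares were not tested. The E-box CACGTG, the sequence that CLOCK and its partner bind, stood in none of the 31 windows and in 6.02% of all windows, which says only that these letters are not in those 250 bases. Windows were at hand for 29 of the 38 kept members, with C8g and Serpinb6a counted more than once.

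The number of members past 2-fold was small in every comparison, from 1 to 4 of the 38, and is set here beside the share of all genes kept. In the Clock mutant over wild type none of the 38 members was at least 2-fold higher at CT14 (4.13% of all genes were) and 3 were lower (5.64%, with 9.76% in either direction). At CT02 none was higher (4.25%) and Habp2 was lower (7.51%, with 11.8% in either direction). In Cry-deficient mice over wild type none was higher at CT14 (2.46%) and Serpina12 and Cd59a were lower (2.27%, with 4.73% in either direction). At CT02 Pros1 was higher (2.73%) and Serpina12, Cd59a and Habp2 were lower (3.96%, with 6.69% in either direction).

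Between times, Habp2 was higher at CT14 in the Clock mutant (4.31% of all genes) and Serpina1c and Serpina1e were lower (3.43%, with 7.74% in either direction). Within Cry-deficient mice Serpina12 and Habp2 were higher (3.53%) and Serpina1b and Pros1 were lower (2.02%, with 5.55% in either direction). Within wild type Serpina12 was higher (2.48%) and Serpinb9 was lower (2.09%, with 4.56% in either direction). As shares of the 38 members, the count in either direction was furthest below all genes at CT02 in the Clock mutant against wild type (2.63% beside 11.8%) and furthest above in Cry-deficient mice between times (10.5% beside 5.55%), a gap of a few genes. The mutants share their wild-type array at each time, and the time comparisons reuse the same 6 arrays.

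Serpina1e gave 2280 scaled units in the Clock mutant at CT14 and 12212 at CT02, 8879 and 12786 in Cry-deficient mice, and 9023 and 11465 in wild type. The Clock mutant CT14 array was the lowest and the other 5 lay between 8879 and 12786. Against wild type at CT14 the Clock mutant was 3.96-fold lower, and at CT02 its log2 ratio was 0.09. Within the Clock mutant CT14 was 5.36-fold lower than CT02, against log2 ratios of -0.53 in Cry-deficient mice and -0.35 in wild type, and the time ratio of the Clock mutant minus that of wild type was -2.08 on the log2 scale.

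Serpina1c was read by a pair of probe sets. On the one whose name carries no letter for shared sequence it read 2340 and 8895 in the Clock mutant at CT14 and CT02, 5932 and 10262 in Cry-deficient mice and 6790 and 9851 in wild type. The second, whose name marks a sequence family, read 1290 and 8410 in the Clock mutant, 4960 and 10435 in Cry-deficient mice and 5708 and 6760 in wild type. Both were lowest on the Clock mutant CT14 array, 2.90-fold and 4.43-fold below wild type at CT14, and 3.80-fold and 6.52-fold below the Clock mutant at CT02.

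Serpina1b read 1512 and 3013 in the Clock mutant at CT14 and CT02, 2505 and 6904 in Cry-deficient mice and 3035 and 5265 in wild type. Here both Clock mutant arrays lay below wild type at the same time, 2.01-fold at CT14 and 1.75-fold at CT02, and the Cry-deficient mice were 2.76-fold lower at CT14 than at CT02. All 3 genes stood lower at CT14 than at CT02 in each genotype. Probe sets of such close copies can read each other's RNA, so which copies carry the difference cannot be told. The probe sets of Serpina1b and Serpina1e carry the same mark of shared sequence. A pair of further probe sets, annotated to 3 and to 4 of these genes together and so no members, read 5206 and 9330 in the Clock mutant at CT14, against 10253 and 11258 in wild type, which is 1.97-fold and 1.21-fold lower. One more such probe set, annotated to 5 of the genes, was above the floor on only 2 arrays, the CT02 arrays of Cry-deficient mice (1694) and wild type (1233). The comparison at CT14 rests on 1 Clock mutant array. For Serpina1b it fell short of 2-fold with lowess (log2 ratio -0.97) and with the dim Clock mutant CT02 array left out of scaling, floor and filter (-0.98).

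**Figure D1:**
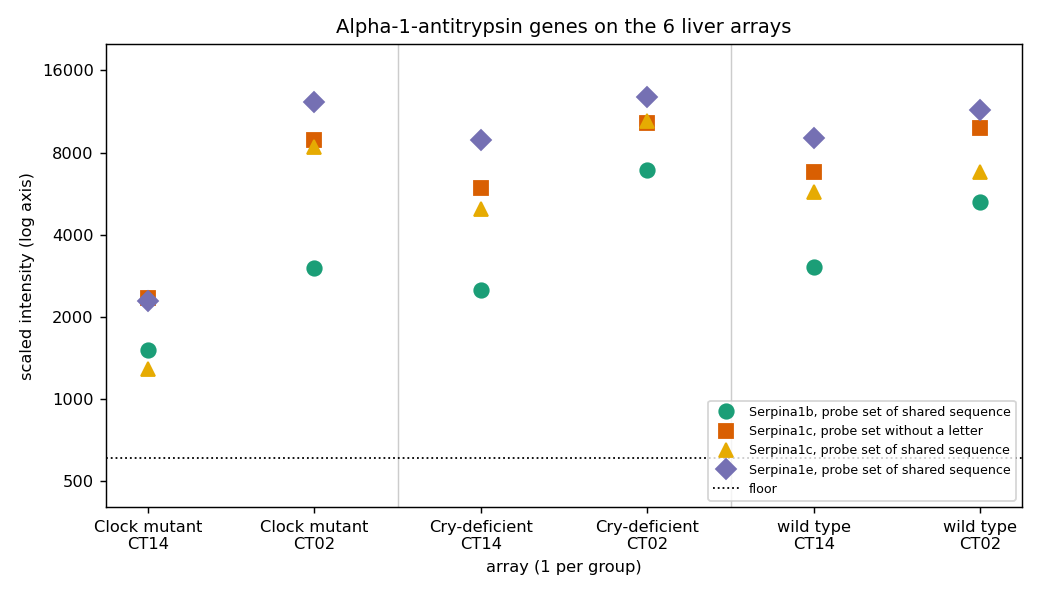
Scaled intensity (log axis) of the 4 probe sets of Serpina1b, Serpina1c and Serpina1e on the 6 arrays, each point 1 probe set on 1 array and the dotted line the floor of 606. All 4 are lowest on the Clock mutant CT14 array, where they lie between 1290 and 2340.

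The measured neighbours of these genes on chromosome 12 were less than 2-fold apart in that comparison. In the order of the RefSeq map, Serpina10 and Serpina6 come before the alpha-1-antitrypsin genes and Serpina12 and Serpina3n after them. At CT14 the log2 ratios of the Clock mutant over wild type were -0.35 for Serpina10 and -0.04 for Serpina6, with Serpina1b, Serpina1c and Serpina1e lower by 2.01-fold, 2.90-fold and 3.96-fold, and after them -0.28 for Serpina12 and 0.87 for Serpina3n.

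Serpina12 encodes vaspin, a serpin known in rodents as a secreted product of fat tissue that is linked to insulin sensitivity. On chromosome 12 with the genes above, it had the widest range of the 38 members, 13.1-fold over the 6 arrays. It read 2846 and 643 in Cry-deficient mice at CT14 and CT02, 6940 and 6647 in Clock mutant mice and 8434 and 3829 in wild type. Both Cry-deficient arrays were below the other 4, 2.96-fold below wild type at CT14 and 5.96-fold at CT02. The CT02 reading of 643 stands just above the floor, on the array whose Gapdh control ratio was highest (2.37). The part of RNA length in this reading was not tested. CT14 was higher than CT02 by 4.43-fold in Cry-deficient mice and by 2.20-fold in wild type, while the Clock mutant times had a log2 ratio of 0.06. Set against wild type, the log2 time ratio was 1.01 larger in Cry-deficient mice and differed by -1.08 in the Clock mutant.

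Cd59a, on chromosome 2, encodes a membrane-anchored protein that stops assembly of the complement pore on the cell's own surface. It read 2236 and 2601 in Cry-deficient mice at CT14 and CT02, 10416 and 13650 in Clock mutant mice and 7813 and 9754 in wild type. The Cry-deficient arrays lay well apart from the other 4, 3.49-fold below wild type at CT14 and 3.75-fold below it at CT02. Over the alternative scalings, floors and filters the log2 ratio at CT14 stayed between -1.82 and -1.75 and at CT02 between -2.03 and -1.89. Cfi, the protease that inactivates complement on surfaces and the other regulator measured, read 21486 and 25541 in Cry-deficient mice, 20704 and 29466 in Clock mutant mice and 25035 and 23319 in wild type, and its log2 ratios in Cry-deficient mice over wild type were -0.22 and 0.13. Cd59a is expressed in many cell types, those of vessels and blood among them. The summed level of 11 macrophage markers was 41347 and 53317 in Cry-deficient mice at CT14 and CT02, 30271 and 29443 in Clock mutant mice, and 37665 and 39015 in wild type. That of 8 endothelial markers was 13855 and 16843 in Cry-deficient mice, 11474 and 14966 in Clock mutant mice, and 8931 and 13121 in wild type, and that of 4 platelet markers (only Gp9 above the floor) 2885 and 2122, 2949 and 4281, and 2833 and 2644 in the same order. The sum of 6 stellate cell and fibroblast markers was 23580 and 22457, 27932 and 34391, and 24589 and 26858 in the same order. In Cry-deficient mice Cd59a and the stellate sum were below wild type, while the macrophage and endothelial sums were above it. In the Clock mutant Cd59a and the endothelial and stellate sums were above wild type and the macrophage sum was below it. Of the endothelial markers Kdr and Tek were lower there at CT02 (log2 ratios -0.33 and -0.61). The part of these cells in the result was not tested.

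Serpina3n, an inhibitor of serine proteases that is induced in the acute-phase response, was higher in the Clock mutant at both times. It read 19938 and 25939 in the Clock mutant at CT14 and CT02, 9542 and 15880 in Cry-deficient mice and 10874 and 13555 in wild type. The Clock mutant stood above all other arrays, by 1.83-fold over wild type at CT14 and 1.91-fold at CT02, short of 2-fold at each. Serpina6, which encodes the plasma carrier of corticosteroids, ranged 1.37-fold over the arrays on its bright probe set. Its dimmer one lay between 6463 and 11114, with log2 ratios of the Clock mutant over wild type of 0.39 and 0.52 at CT14 and CT02, against -0.04 and 0.16 on the bright one.

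**Figure D2:**
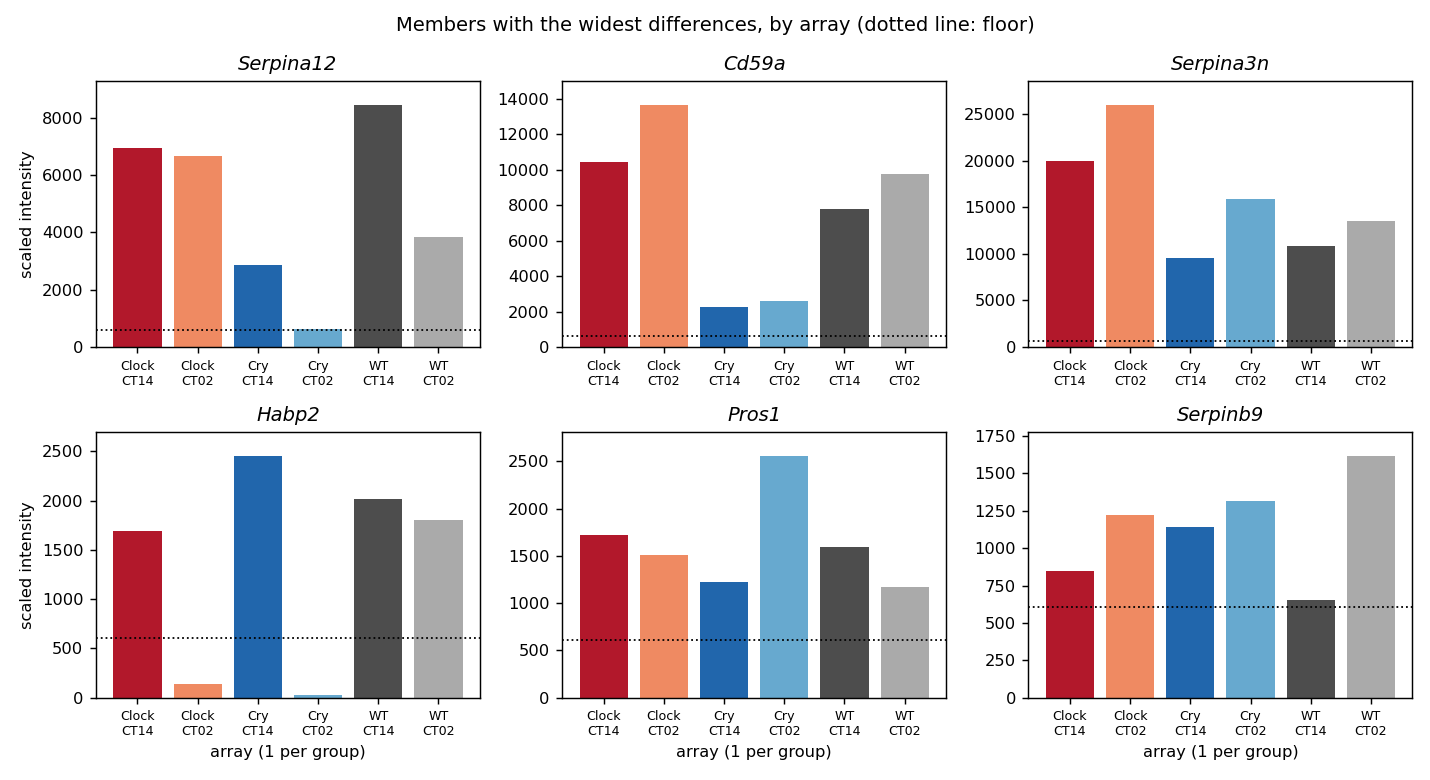
Scaled intensity (bars from 0) of Serpina12, Cd59a, Serpina3n, Habp2, Pros1 and Serpinb9 on the 6 arrays, 1 bar for each array and the dotted line the floor. Serpina12 and Cd59a are lowest on both Cry-deficient arrays, Serpina3n is highest on both Clock mutant arrays, and Habp2 is below the floor on the CT02 arrays of both mutants.

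Of 6 serpins on the array that restrain clotting, fibrinolysis and complement 5 were kept. None was 2-fold apart in any of the 7 comparisons, a count too small to set apart from the 4.56% to 11.8% of all genes that were. Serping1, the C1 inhibitor of the classical complement pathway, had the narrowest range of all members, 1.24-fold. It read 21792 and 26951 in the Clock mutant at CT14 and CT02, 21860 and 23925 in Cry-deficient mice and 24458 and 23414 in wild type. Serpinf2 (the plasmin inhibitor) ranged 1.29-fold and Serpind1 (heparin cofactor) 1.32-fold, though a second, dim probe set of Serpinf2 gave log2 ratios of -0.61 and -0.80 in Cry-deficient mice over wild type at CT14 and CT02, where the bright one gave 0.05 and 0.14. Serpina10, which inhibits activated factor X with protein Z, ranged 1.49-fold. Serpinc1, antithrombin, ranged 1.55-fold, lowest in the Clock mutant at CT14 (15911) and highest in it at CT02 (24723). On the deposited values that CT02 reading was 18348, below wild type (21577 and 23200 at CT14 and CT02). Serpina5, the protein C inhibitor, was dropped as dim, with readings above the floor only in the Clock mutant (709 and 649) and on only 1 of its 2 probe sets.

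Other serpins were mostly dim in liver. Of 8 intracellular serpins of clade B only Serpinb6a and Serpinb9 were kept, and Serpinb1a, Serpinb2, Serpinb3a, Serpinb5, Serpinb6c and Serpinb9e were dropped as dim. Serpinb9, which protects cells from granzyme B, read 846 and 1221 in the Clock mutant at CT14 and CT02, 1144 and 1317 in Cry-deficient mice and 650 and 1618 in wild type. It was 2.49-fold lower at CT14 than at CT02 in wild type, on a CT14 reading close to the floor. Serpinb6a ranged 1.72-fold. Serpinf1, a secreted serpin that restrains vessel growth, ranged 1.43-fold on its bright probe set. Its dimmer one lay between 835 (wild type at CT14) and 1896 (Clock mutant at CT02), with log2 ratios of the Clock mutant over wild type of 0.46 at CT14 and 0.9996 at CT02, against -0.10 and 0.41 on the bright one. Serpinh1, a collagen chaperone, stayed between 525 and 1150 scaled units. Serpini1, known from neurons, read below 0 on all 6 arrays.

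Of 12 clotting factors on the array 11 were kept, and Habp2 was the only one 2-fold apart in any comparison. It was so in 4 comparisons, in each 9.09% of the 11, beside 5.55% to 11.8% of all genes. Over the 6 arrays F8 ranged at least 2.32-fold, its lowest reading being at the floor, and F13b 2.06-fold as well. F7 and F9, which start and amplify clotting, ranged 1.24-fold each, F5 1.25-fold, F10 1.31-fold, F2 (prothrombin) 1.41-fold and F12 1.45-fold. F2 read 24520 and 34522 in the Clock mutant at CT14 and CT02, 27537 and 31213 in Cry-deficient mice and 28533 and 28204 in wild type. The wild-type readings nearly coincide, and each mutant was higher at CT02 than at CT14 after scaling. On the deposited values neither was. There the Clock mutant read 25687 and 25620 at CT14 and CT02, and Cry-deficient mice 31656 and 31127. F10 had a second, dimmer probe set, whose log2 ratios of the Clock mutant over wild type were 0.82 and 0.98 at CT14 and CT02, against 0.12 and 0.36 on the bright one. F3, tissue factor, was below the floor on every array, and F8 stayed between 493 and 1409.

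Klkb1 and Kng1, of the contact system, ranged 1.62-fold and 1.72-fold. Kng1, the source of bradykinin, read 7282 and 12523 in the Clock mutant at CT14 and CT02, 9540 and 10260 in Cry-deficient mice and 9084 and 10123 in wild type. F13b, the carrier subunit of the factor that cross-links fibrin, took another course. It read 12717 and 8469 in the Clock mutant, 6162 and 8480 in Cry-deficient mice and 8403 and 7726 in wild type. It was highest in the Clock mutant at CT14 and lowest in Cry-deficient mice at CT14, with log2 ratios over wild type at that time of 0.60 and -0.45.

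Habp2, on chromosome 19, encodes a plasma protease that can activate factor VII. It read 1693 and 136 in the Clock mutant at CT14 and CT02, 2454 and 24 in Cry-deficient mice and 2011 and 1798 in wild type. At CT02 both mutants were under the floor and at least 2.97-fold below wild type, while at CT14 their log2 ratios were -0.25 and 0.29. Its 1 probe set was low on the same arrays whose Actb control ratio was highest (2.68 and 1.70). The same ratio for Pcx was 17.7 and 25.3 on those arrays, but also 19.7 on the wild-type CT02 array, where Habp2 read 1798, and the part of RNA length in this result was not tested.

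The 3 fibrinogen chains together form the fibrin precursor. After scaling, each was highest on the Clock mutant CT02 array and lowest on the Clock mutant CT14 array. Fga read 7856 and 13262 in the Clock mutant at CT14 and CT02, 10424 and 12806 in Cry-deficient mice and 11127 and 11256 in wild type. Fgb read 14194 and 19854 in the Clock mutant, 15473 and 16633 in Cry-deficient mice and 15852 and 16031 in wild type. Fgg read 15324 and 20104 in the Clock mutant, 16051 and 18795 in Cry-deficient mice and 16018 and 16759 in wild type. In wild type the times differed by at most 0.07 on the log2 scale for the 3 chains, and in the Clock mutant CT14 was lower by log2 ratios of -0.76, -0.48 and -0.39.

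Plg, the precursor of the clot-dissolving protease plasmin, read 17236 and 28560 in the Clock mutant at CT14 and CT02, 19452 and 24476 in Cry-deficient mice and 19346 and 22189 in wild type. Its second probe set, of shared sequence, read 6338 and 14863 in the Clock mutant, 15850 and 19536 in Cry-deficient mice and 15341 and 17963 in wild type. The probe sets disagreed on the Clock mutant at CT14, with log2 ratios over wild type of -0.17 and -1.28. Proc, the anticoagulant protein C, read 14799 and 19844 in the Clock mutant, 14285 and 17225 in Cry-deficient mice and 13602 and 14125 in wild type. Pros1, its cofactor protein S, read 1227 and 2559 in Cry-deficient mice, 1719 and 1512 in Clock mutant mice and 1599 and 1174 in wild type. The Cry-deficient CT02 array stood above the other 5, 2.18-fold over wild type at CT02, and within Cry-deficient mice CT14 was 2.09-fold lower than CT02. On the deposited values without scaling both fell short of 2-fold, with log2 ratios of 0.997 and -0.86. Macrophage markers were summed highest on the Cry-deficient CT02 array (53317), and its Gapdh control ratio was also the highest (2.37). The part of these cells and of RNA length in the Pros1 reading was not tested.

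Of the complement components C2, C8g, C9 and Cfb were measured. None was 2-fold apart in any comparison, a count too small to set apart from the share of all genes. C2, a protease of the classical pathway, read 8078 and 6263 in the Clock mutant at CT14 and CT02, 10462 and 12017 in Cry-deficient mice and 10330 and 8509 in wild type, and was lower in the Clock mutant than in the other genotypes at each time. C9, which forms the complement pore, ranged 1.56-fold and C8g, a subunit of the same pore, 1.52-fold. Cfb, the protease of the alternative pathway, read 1209 and 1340 in Cry-deficient mice, 1629 and 1734 in Clock mutant mice and 1857 and 1939 in wild type, with log2 ratios in Cry-deficient mice over wild type of -0.62 and -0.53 on a probe set whose name carries a letter.

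**Figure D3:**
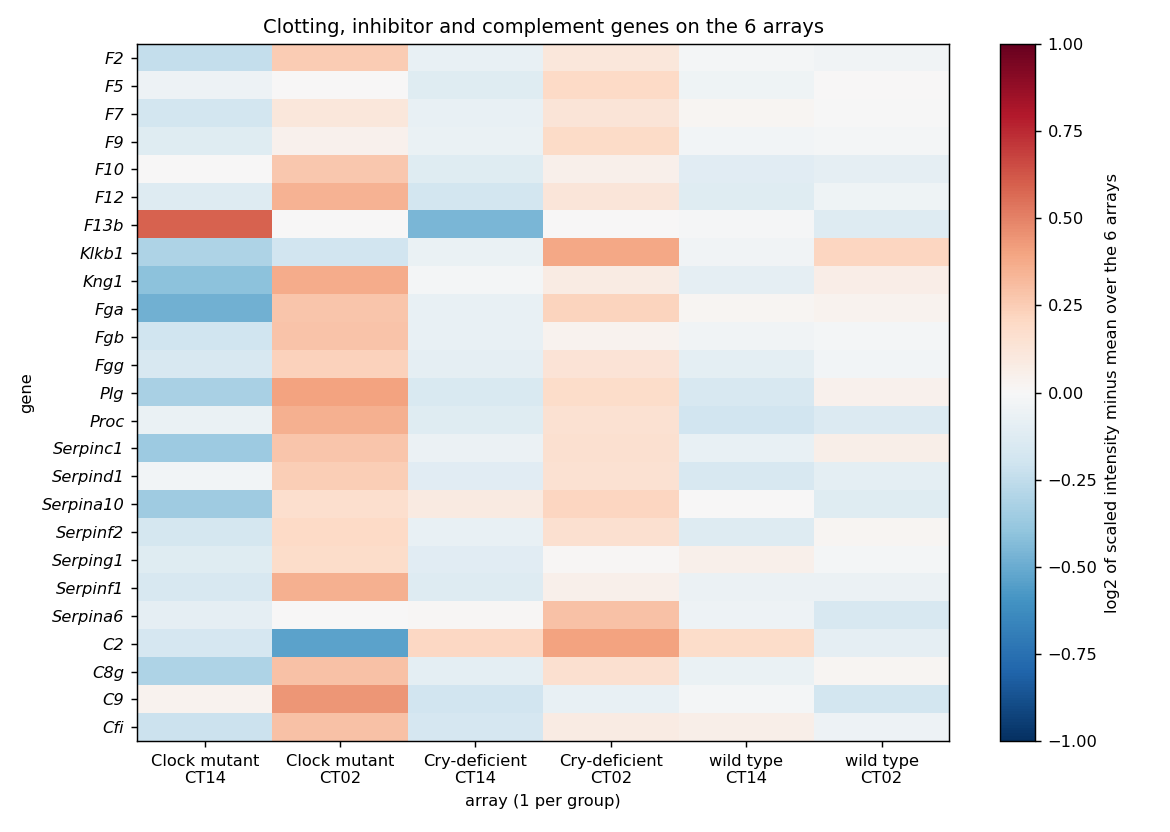
Log2 scaled intensity of 25 members minus the mean of the 6 arrays (colour scale from -1 to 1), with 1 row for each gene and 1 column for each array. Most rows are highest on a CT02 array of a mutant, the wild-type columns differ little, F13b is highest in the Clock mutant at CT14, and C2 is lowest in the Clock mutant at CT02.

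Small shifts ran through the group at CT02. Of 38 members 29 were above wild type in the Clock mutant at CT02, with a median log2 ratio of 0.23, and 32 were in Cry-deficient mice, with a median of 0.14. Of all 4844 genes kept 2390 and 2421 were above wild type there. At CT14 the medians were -0.16 and -0.04. For CT14 over CT02, 31 of 38 members were lower in the Clock mutant (median -0.39), 35 in Cry-deficient mice (median -0.24) and 26 in wild type (median -0.05), while the median of all genes was 0.00 in each. Of all 4844 genes 2351, 2378 and 2421 were lower, in the same order.

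The brightest genes of the whole array were also shifted, in the same directions. Of the 38 members 19 lay among the brightest 10% of genes, and those 485 genes had medians of 0.24 and 0.12 for the Clock mutant and Cry-deficient mice over wild type at CT02, and of -0.29, -0.16 and -0.01 for CT14 over CT02 in the Clock mutant, Cry-deficient mice and wild type. Of these 485 genes 386 and 357 were above wild type at CT02, and 409, 380 and 260 were lower at CT14 than at CT02, in the same order. At CT14, for the Clock mutant against wild type, the median of the brightest 10% was -0.06, beside -0.16 for the members. With quantile normalization, which gives every array the same spread of values, the members' medians at CT02 were 0.0235 and 0.0280 beside 0.00368 and -0.00158 for the brightest 10%. The members' medians for CT14 over CT02 were then -0.14 in the Clock mutant and -0.13 in Cry-deficient mice, beside -0.00570 and -0.0115 for the brightest 10%, so under that setting the members' medians over time lay below those of the brightest genes. The median range over the 6 arrays was 1.58-fold for the members and 1.77-fold for all genes kept. It was 1.40-fold for the brightest 10%, 1.41-fold for the 19 members in it and 2.06-fold for the 19 kept members outside it.

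**Figure D4:**
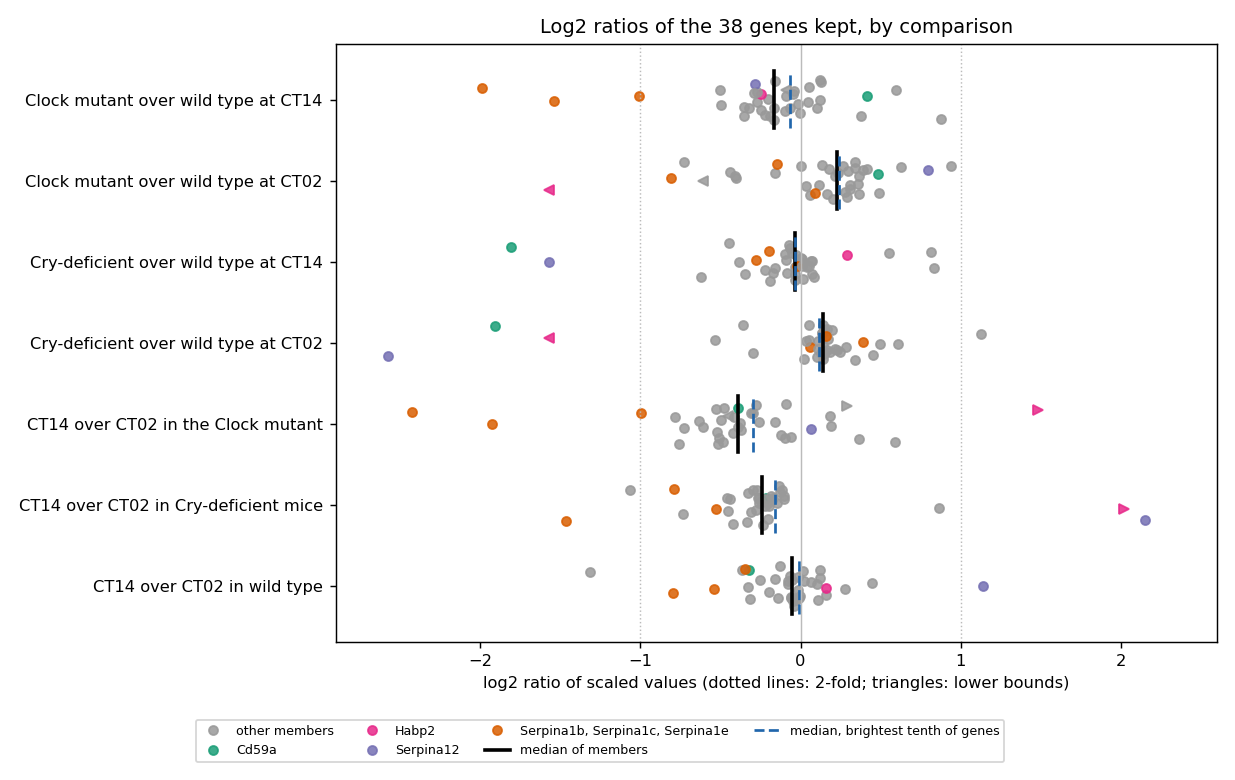
Log2 ratios of the 38 kept members in the 7 comparisons (points, with triangles for lower bounds), with the median of the members (black line) and of the brightest 10% of genes (dashed line). Most points lie near the dashed line, and the alpha-1-antitrypsin genes, Serpina12, Cd59a and Habp2 lie furthest from it.

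Of 19 further complement genes kept (22 on the array) none was 2-fold apart from wild type in either mutant at CT14, where 9.76% of all genes were in the Clock mutant and 4.73% in Cry-deficient mice. At CT02, 3 (15.8%) were lower in the Clock mutant, beside 7.51% of all genes, and 1 (5.26%) was lower in Cry-deficient mice, beside 3.96%. Hc, which encodes complement component C5, read 11112 and 6275 in the Clock mutant at CT14 and CT02, 16704 and 20215 in Cry-deficient mice and 16693 and 17548 in wild type, 2.80-fold lower in the Clock mutant at CT02. C1qb, a macrophage-derived part of the complement trigger C1q, was 2.40-fold and Cr1l, a membrane regulator, 2.05-fold lower there, and C1qa was 3.17-fold lower in Cry-deficient mice at CT02, a direction opposite to that of most macrophage markers on that array.

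Of 20 further genes of clotting, fibrinolysis and plasma protease inhibition kept (27 on the array), Tfpi2, a protease inhibitor, was the only one 2-fold apart from wild type, in comparisons where 9.76% (Clock mutant) and 4.73% (Cry-deficient) of all genes were. It read 9459 and 10037 in the Clock mutant at CT14 and CT02, 10285 and 6071 in Cry-deficient mice and 4610 and 7593 in wild type, 2.05-fold and 2.23-fold higher in the mutants at CT14. Ahsg, the plasma glycoprotein fetuin, read 10318 and 21912 in the Clock mutant at CT14 and CT02, 2.12-fold lower at CT14, against 19487 and 22536 in Cry-deficient mice and 19584 and 21298 in wild type. Like the alpha-1-antitrypsin genes, Ahsg was lowest on the Clock mutant CT14 array. That trait is common on this array. The fibrinogen chains, Plg and Kng1 and the hepatocyte markers Alb and Cps1 were lowest there too.

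Among 13 liver transcription factor genes kept, the median log2 ratio over wild type was 0.17 and 0.02 in Clock mutant mice and -0.02 and 0.06 in Cry-deficient mice at CT14 and CT02. Single genes of the list went both ways, and 23.1% and 15.4% of them were 2-fold apart in the Clock mutant, beside 9.76% and 11.8% of all genes, and 30.8% at each time in Cry-deficient mice, beside 4.73% and 6.69%. Bcl6, a repressor, read 700 and 3537 in the Clock mutant, 1447 and 5737 in Cry-deficient mice and 4010 and 5521 in wild type. In the Clock mutant at CT14 it was 5.73-fold below wild type, on a reading of 700 close to the floor. Hnf4a is a master regulator of hepatocyte genes. It read 4154 and 871 in Cry-deficient mice, 5827 and 4086 in Clock mutant mice and 6563 and 4042 in wild type. In Cry-deficient mice at CT02 it was 4.64-fold lower than wild type, on a reading near the floor of 606. The Gapdh control ratio was highest (2.37) on that array, and the part of RNA length was not tested. Onecut1, a factor that acts with Hnf4a, was higher at CT14 than at CT02 in each genotype. It read 5572 and 1062 in Cry-deficient mice, 2628 and 1003 in Clock mutant mice and 1537 and 637 in wild type. Foxa2, which opens liver chromatin, read 2376 and 1851 in Cry-deficient mice, 2137 and -28 in Clock mutant mice and 747 and 76 in wild type. At CT14 it was 3.18-fold and 2.86-fold above wild type in Cry-deficient mice and the Clock mutant, over a wild-type reading of 747 close to the floor.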

How the data were processed

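The intensity values are as the authors deposited them, whole numbers that run below 0, with the software and background step not given in the sources used here. To scale an array, its ratios to the geometric mean over arrays were taken at 6065 probe sets, and all its values were divided by their median. Probe sets with 1 symbol (10833 without controls) were used, and a gene was represented by its brightest. Of the members 35 had 1 probe set and 12 had 2. RefSeq held the gene number of 10817 of these, and no symbol differed. Log2 ratios are of scaled values with the floor applied. Python 3.11.15, numpy 2.4.6, pandas 2.3.3, statsmodels 0.14.6 (lowess, span 0.3) and Biopython 1.88 were used, and the steps were tested on simulated arrays.

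The members and gene lists were chosen with earlier results of these data known. Named were Serpina12, Serpina1e and Cd59a, up to 5 members furthest apart past 2-fold in each direction of each comparison, all kept fibrinogen, anticoagulant, fibrinolytic and regulator genes, up to 6 others in each role by widest range and the narrowest, and up to 4 non-members a list. Alternatives were the deposited values, quantile normalization, lowess, the 25th percentile as floor, dim genes left in, the mean over probe sets and probe sets with no letter in the name. Scaling without each mutant CT02 array was added after seeing the data.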

Additional observations from a re-analysis of the deposited data

Results flagged for a closer look

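F13b ran in opposite directions with time in the mutants, with a log2 ratio of CT14 over CT02 of 0.59 in the Clock mutant and -0.46 in Cry-deficient mice, a difference of 1.05. Pros1 did so between Cry-deficient mice (-1.06) and wild type (0.45), a difference of -1.51, and between the Clock mutant (0.19) and Cry-deficient mice, a difference of 1.25. For Serpinh1, which stayed close to the floor, the time ratios of Cry-deficient mice and wild type (0.86 and -0.33) differed by 1.19. With 1 array a group none of these differences was tested. A probe set annotated to 3 alpha-1-antitrypsin genes together belongs to no single gene and entered no count of members. It had a log2 ratio of CT14 over CT02 of -1.60 in the Clock mutant, against -0.57 in Cry-deficient mice and -0.16 in wild type.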

How the results depend on the processing

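No paired analysis was possible because each group has 1 array. Medians were taken as unmoved within 0.1 on the log2 scale and counts within 1.5 times. Without scaling, all genes together were shifted, by medians of -0.52 and -0.11 at CT02 for the Clock mutant and Cry-deficient mice against wild type, and of 0.45 and 0.20 for CT14 over CT02 in those mutants. The members' medians were then -0.33, 0.0139, 0.11 and -0.0370, both values of the Clock mutant being opposite in sign to the scaled ones. In the Clock mutant at CT02 3 of 38 members were then 2-fold apart from wild type, beside 21.2% of all genes. Quantile normalization gave 0.0235, 0.0280, -0.14 and -0.13 for those 4 medians, and lowess gave 0.0398 for the Clock mutant at CT02 and -0.13 for its time comparison. With the floor at the 25th percentile, which admits 44 members and many dim readings, the counts were 6 at CT14 and 4 at CT02 between the Clock mutant and wild type, 5 for Cry-deficient mice at CT14, and 6, 8 and 4 for time in the Clock mutant, Cry-deficient mice and wild type. On probe sets with no letter in the name, which leave out Serpina1b and Serpina1e, 1 member was apart in the Clock mutant at CT14. Shares of all genes are not given here for that floor or those probe sets. The counts are therefore no result about the members. Of 19 single-gene differences past 2-fold, recomputed 155 times in all, none changed direction, and 151 stayed past 2-fold. Below it were Serpina1b in the Clock mutant at CT14 with lowess (-0.97) and without the Clock mutant CT02 array in the scaling (-0.98), and Pros1 at CT02 (0.997, just under 2-fold) and over time (-0.86) in Cry-deficient mice on the deposited values. Habp2 at CT02 moved with the lower floor, to -3.72 and -5.97. Signal over background limits Habp2, Serpinb9, Serpinh1, F8 and the low Serpina12 reading, and the low readings of Bcl6, Foxa2, Onecut1 and Hnf4a among the non-members.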
